A study of Mus musculus with 6 samples.

Results

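Ccl2, Ccl7, Ccl12 and Ccl8, the mouse monocyte chemoattractant ligands, and Ccr2, the main receptor of this group, were followed across mouse bone marrow-derived macrophages (BMDMs) with and without regorafenib, a multikinase inhibitor. They are 5 of the 54446 gene IDs measured, taken by gene symbol. They were selected on their ratios of regorafenib to control and of polarized to unpolarized cells in these libraries, so the ratios below describe the genes and test nothing. RNA was sequenced from 6 libraries, 1 per condition: unpolarized cells (M0), cells polarized for 24 hours with LPS at 50 ng/mL plus IFN-γ at 20 ng/mL (M1), and cells polarized for 24 hours with IL4 at 20 ng/mL (M2), each with regorafenib (1 µM, from 1 hour before polarization) or with DMSO as the control. How long the M0 cells were in culture or with the drug is not given in the sources used here. All cells came from the bone marrow of male BALB/c mice aged 6 to 8 weeks and had been cultured for 7 days in medium with 20% L929-conditioned medium. With 1 library per condition, no difference has a replicate check and no p-value is given, and how many mice or cultures went into a library is not given in the sources used here.

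Ccl2, Ccl7, Ccl12 and Ccl8 encode secreted CC chemokines that draw monocytes to sites of inflammation, and macrophages are a main source of them. CCR2, a G protein-coupled receptor on classical monocytes, binds Ccl2, Ccl7 and Ccl12 and is needed for monocytes to leave the bone marrow. Ccl8 is also bound by other CC receptors, and Ccl12 has no direct human counterpart. Transcription of Ccl2 is known to be induced through NF-κB and AP-1 by LPS, TNF and IL-1, and its mRNA is short-lived.

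The 4 ligand genes lie on the plus strand of chromosome 11 within 81.2 kb (GRCm38, Gencode M21), each with 3 exons. Ccl2 is at chr11:82035571-82037453 and Ccl7 at chr11:82045712-82047525, 8.26 kb apart. Ccl12 is at chr11:82101845-82103400 and Ccl8 at chr11:82115185-82116799, 11.8 kb apart. Ccr2 is on chromosome 9, at chr9:124101950-124113557 on the plus strand. An antisense gene, Gm17268, overlaps Ccl2, and its 0 counts in all 6 libraries allow up to 3 counts in each. Of the 100-base words in the transcripts, 0 of the ligands' and 0.79% of those of Ccr2 were shared with another gene on the same strand, and 0 of any on the other.

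Promoter windows from RefSeq (GRCm38.p6, 250 bases before to 50 bases after RefSeq's gene start) matched 3 of the 5 genes: Ccl12, Ccl8 and Ccr2. The windows of Ccl12 (chr11:82101595-82101894) and Ccl8 (chr11:82114935-82115234), both on the plus strand, are printed because these neighbouring ligands differed in their level per kilobase in M0 control (5.64 and 0.319 CPM). Capitals mark matches to a TATA box (TATAAA) and to a PU.1 core (GAGGAA, on the minus strand in Ccl8).
Ccl12: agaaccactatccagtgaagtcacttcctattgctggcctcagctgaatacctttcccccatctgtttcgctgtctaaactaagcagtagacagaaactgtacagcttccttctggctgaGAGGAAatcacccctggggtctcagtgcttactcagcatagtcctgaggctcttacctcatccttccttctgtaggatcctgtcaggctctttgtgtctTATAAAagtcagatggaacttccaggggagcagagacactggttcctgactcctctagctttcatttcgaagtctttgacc
Ccl8: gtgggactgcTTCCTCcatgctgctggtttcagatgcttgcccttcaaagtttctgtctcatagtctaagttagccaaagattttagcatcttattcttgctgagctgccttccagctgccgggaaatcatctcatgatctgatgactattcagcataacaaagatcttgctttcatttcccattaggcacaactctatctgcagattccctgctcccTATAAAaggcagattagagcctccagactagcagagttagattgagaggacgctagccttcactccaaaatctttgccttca
Counted from the gene start, the TATA box was at -31 to -26 in Ccl12 and at -32 to -27 in Ccl8. The PU.1 core was at -130 to -125 in Ccl12 and at -240 to -235 in Ccl8. No match overlapped another. A TATA box was held by 13.6% and a PU.1 core by 28.3% of all 32851 windows of this length. The letters of an NF-κB consensus (in 8.46% of all windows), AP-1 (TGANTCA, 7.81%), a CRE core (TGACG, 20.8%), GAS (TTCNNNGAA, 8.3%), a STAT6 site with a spacing of 4 (6.95%) and a GC box (GGGCGG, 35.7%) were in neither window. The window of Ccr2 (chr9:124101933-124102232) held 0 of the 8 motifs searched on both strands. RefSeq's start of this gene lies downstream of the Gencode start, so most of that window is inside the Gencode gene. These matches are descriptions of letters and not binding sites.

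The libraries held between 25359309 and 34898342 counts. Levels are given as CPM, the counts of a gene per 1000000 counts of its library after scaling by the trimmed mean of M-values (TMM), and all intervals are 95% intervals of counting error only. In these bulk libraries, fewer cells of a type and less RNA per cell cannot be told apart. The 7 macrophage markers were above 3 counts in every library, and Lyz2 held most of their summed level, which was 29900 and 48200 CPM in M0 control and regorafenib, 27600 and 29800 CPM in M1, and 21600 and 33300 CPM in M2. With the drug, Fcgr1 was lower by 2-fold or more in each state, at log2 ratios of -1.48, -1.23 and -1.25 in M0, M1 and M2. Mertk was higher in M0, at 1.59, and in M2, at 1.34, and the other 5 were within 2-fold. Over all genes, 10.9%, 3.46% and 5.07% were lower by 2-fold or more in M0, M1 and M2, and 9.47%, 1.76% and 6.15% higher. The 4 M1 markers (Nos2, Il12b, Cxcl9 and Cxcl10) summed to 17000 and 11200 CPM in the M1 control and regorafenib libraries and to at most 16.6 CPM elsewhere. Most of the sum in M1 was Nos2, at a log2 ratio of regorafenib to control of -0.79 (-0.8 to -0.78) there, while Il12b was at 1.5 (1.47 to 1.54), Cxcl10 at 0.4 (0.34 to 0.47) and Cxcl9 at 0.19 (0.16 to 0.22). The 3 M2 markers (Retnla, Mrc1 and Chil3) summed to 700.0 and 605 CPM in M2 and to at most 24.5 CPM elsewhere. Most of the sum in M2 was Mrc1, and with the drug in M2 Mrc1 was at a log2 ratio of -0.53 (-0.56 to -0.5), Retnla at 2.22 (2.11 to 2.32) and Chil3 at 1.22 (1.03 to 1.4).

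Ccl2, the most studied monocyte chemoattractant of the group, was at 367 CPM (11274 counts) in the M0 control library, 738 CPM (19070 counts) in M1 and 839 CPM (30618 counts) in M2. With regorafenib, Ccl2 was at 4.52 CPM (149 counts) in M0, 1390 CPM (33467 counts) in M1 and 23.2 CPM (649 counts) in M2. The M0 and M2 libraries with the drug were the lowest, and the other 4 were at 367 CPM or more. The counting intervals of all 6 libraries were apart. Per kilobase of exon, Ccl2 ranked 88, 65 and 35 from the top among all genes in the M0, M1 and M2 control libraries, and 7325, 35 and 2151 with the drug.

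Ccl7, a ligand of CCR1, CCR2 and CCR3, was at 108 CPM (3304 counts), 219 CPM (5671 counts) and 830 CPM (30289 counts) in the M0, M1 and M2 control libraries. With regorafenib, it was at 1.3 CPM (43 counts), 391 CPM (9429 counts) and 13.2 CPM (368 counts). Here the M2 control library was the highest, 2.12-fold above the next, while for Ccl2 it was the M1 library with regorafenib, 1.66-fold above the next. The counting intervals of all 6 libraries were again apart.

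Ccl12, a mouse CCR2 ligand, had the same order of libraries as Ccl7 at a much lower level. Its control libraries were at 3.03 CPM (93 counts) in M0, 12.5 CPM (324 counts) in M1 and 29.8 CPM (1087 counts) in M2. Its regorafenib libraries were at 0.0303 CPM (1 count) in M0, 13.9 CPM (335 counts) in M1 and 0.5 CPM (14 counts) in M2. The intervals of the control and regorafenib libraries of M1 overlapped.

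Ccl8 was nearly undetected in M0, at 5 counts in control (0.163 CPM, 0.0529 to 0.38) and 2 counts with regorafenib (0.0607 CPM, 0.00735 to 0.219). It was at 7.51 CPM (194 counts) in M1 control, 8.34 CPM (201 counts) in M1 with regorafenib and 7.31 CPM (267 counts) in M2 control. In M2 with regorafenib it was at 1.22 CPM (34 counts). The first 3 of these libraries were not distinguishable in their order by counting error, nor were the M0 libraries from each other.

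Ccr2, the receptor, was higher with regorafenib in M0 and M2. It was at 10.6 CPM (325 counts) and 23.0 CPM (757 counts) in M0 control and regorafenib, and at 7.67 CPM (280 counts) and 15.5 CPM (434 counts) in M2. In M1 it was at 1.12 CPM (29 counts) in control and 0.788 CPM (19 counts) with regorafenib, and these intervals overlapped. The highest Ccr2 level was thus in the library with the lowest levels of Ccl2, Ccl7 and Ccl12.

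**Figure D1:**
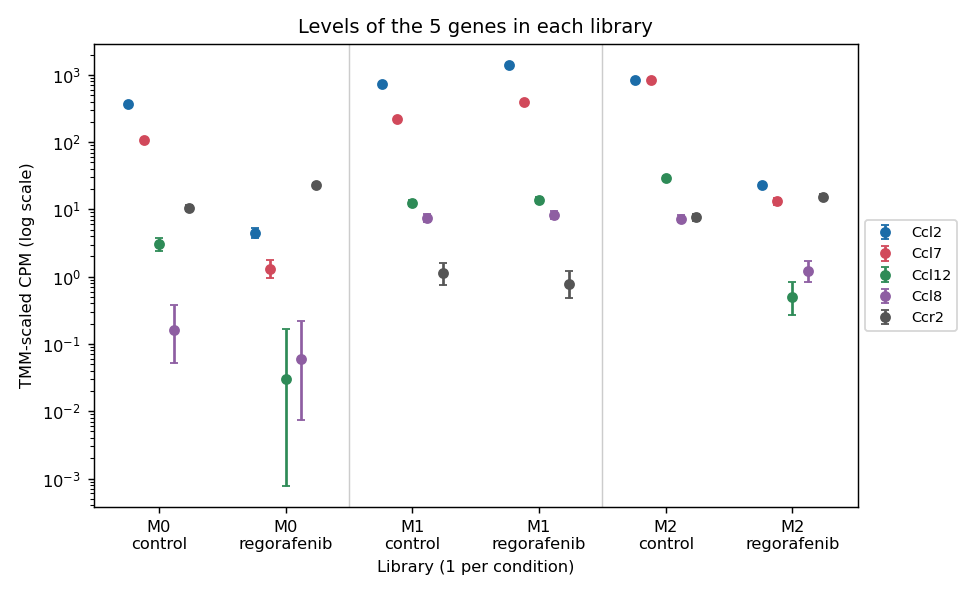
TMM-scaled CPM on a log axis for Ccl2, Ccl7, Ccl12, Ccl8 and Ccr2 in each of the 6 libraries, with 95% Poisson intervals of the counts. Ccl2, Ccl7 and Ccl12 are low in the M0 and M2 libraries with regorafenib (Ccl2 at 4.52 and 23.2 CPM) and high in the other 4, while Ccr2 is lowest in the M1 libraries.

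Regorafenib was compared with control within each state, and a gene was counted as lower or higher from a 2-fold difference on. In M0, Ccl2, Ccl7 and Ccl12 had the 3 lowest ratios of the 13964 genes that reached 10 counts on either side. Ccl2 was 81.2-fold lower with the drug, at a log2 ratio of -6.34 (-6.59 to -6.11). The ratio was -6.37 (-6.83 to -5.93) for Ccl7 and -6.64 (-11.96 to -4.13) for Ccl12. The wide interval of Ccl12 goes with its single count under the drug, and with 1 CPM added to both values the ratio was -1.97, against -5.56 for Ccl7. For Ccl8 the ratio was -1.42 (-4.82 to 1.19), a difference not detectable at this depth, and -0.13 with 1 CPM added. Ccr2 was 2.17-fold higher with regorafenib, at a log2 ratio of 1.12 (0.93 to 1.31). Of the 5 genes, 4 were lower and 1 was higher by 2-fold or more, with Ccl8 among the lower although its interval spans 0 and it was within 2-fold with 1 CPM added. The limit of 10 counts was passed by 4 of the 5, all but Ccl8. Over all genes that passed it, 10.9% were lower and 9.47% higher, with a median log2 ratio of 0.0.

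In M2, the same comparison gave a log2 ratio of -5.18 (-5.29 to -5.06) for Ccl2, 36.1-fold lower. Ccl7 was 63.1-fold lower, at -5.98 (-6.13 to -5.83), and Ccl12 was 59.5-fold lower, at -5.89 (-6.77 to -5.14). Ccl2, Ccl7 and Ccl12 were in places 5, 2 and 3 from the lowest of 13813 genes. Ccl8 was 6.02-fold lower, at -2.59 (-3.15 to -2.07), so its ratio lay outside the intervals of the other ligands. With 1 CPM added, the ratio was -1.91 for Ccl8 and -4.36 for Ccl12. Ccr2 was again higher, at 1.02 (0.8 to 1.24), and its interval reached below 2-fold, as did its value with 1 CPM added, 0.93. The 4 ligands were lower and Ccr2 higher by 2-fold or more, against 5.07% of all genes lower and 6.15% higher and a median log2 ratio of -0.03.

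In M1, no ligand was lower with regorafenib. Ccl2 was 1.88-fold higher, at a log2 ratio of 0.91 (0.89 to 0.94), and Ccl7 was 1.78-fold higher, at 0.83 (0.79 to 0.88). They were in places 295 and 379 from the highest of 13440 genes. Ccl12 was at 0.15 (-0.08 to 0.37), Ccl8 at 0.15 (-0.14 to 0.44) and Ccr2 at -0.51 (-1.43 to 0.37), and the counting interval of each spans 0. Of the 5 genes, 0 were lower and 0 higher by 2-fold or more, where 3.46% of all genes were lower and 1.76% higher, with a median log2 ratio of -0.02.

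**Figure D2:**
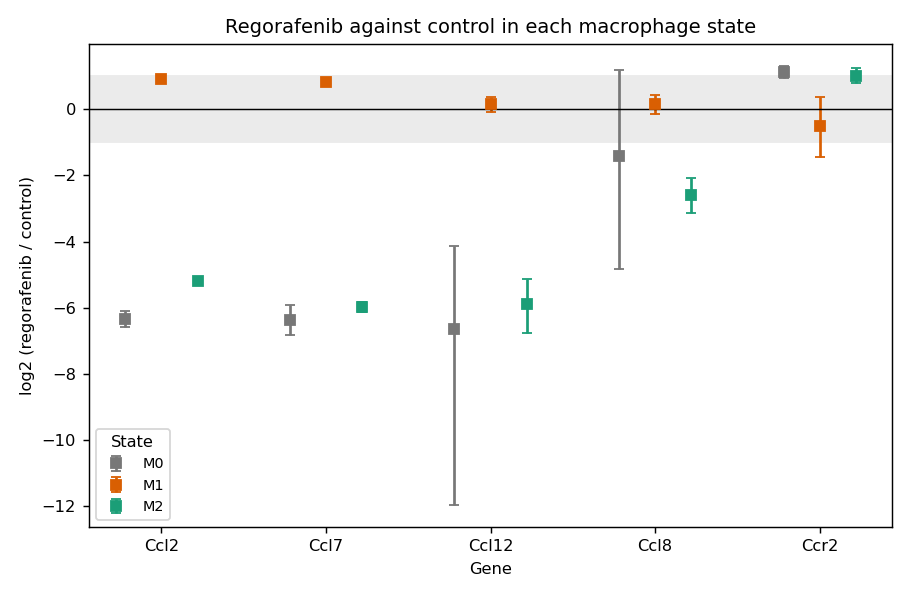
Log2 ratio of regorafenib to control for each gene in M0 (grey), M1 (orange) and M2 (green), with 95% conditional binomial intervals of the counts and the range within 2-fold shaded. Ccl2, Ccl7 and Ccl12 sit between -6.64 and -5.18 in M0 and M2 and between 0.15 and 0.91 in M1, while Ccr2 sits at 1.12 in M0 and 1.02 in M2.

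Polarization was compared with M0 within the control libraries and within the regorafenib libraries. Both polarized states share the M0 library of their arm, which is also part of the drug comparison in M0. In the control libraries, the log2 ratio of M1 (IFN-γ and LPS) to M0 was 1.01 (0.97 to 1.04) for Ccl2. It was 1.03 (0.97 to 1.09) for Ccl7 and 2.05 (1.71 to 2.4) for Ccl12. Ccl8 was 46.1-fold higher in M1, at 5.53 (4.28 to 7.17), and Ccr2 was 9.43-fold lower, at -3.24 (-3.84 to -2.69). Ccl8 in M0 control rests on 5 counts, and with 1 CPM added its ratio was 2.87 and that of Ccr2 -2.45. Scaling by total counts moved the median of all genes to -0.49, from -0.05, and gave 0.57 for Ccl2 and 0.59 for Ccl7, under 2-fold. The 4 ligands were higher and Ccr2 lower by 2-fold or more, where 19.7% of all genes were lower and 17.4% higher. Of all such genes 46.8% were higher, and 30.3% when scaled by total counts.

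In M2 (IL4) against M0 in the control libraries, the log2 ratio was 1.19 (1.16 to 1.22) for Ccl2. Ccl7, at 2.95 (2.9 to 3.0), and Ccl12, at 3.3 (2.99 to 3.62), were 7.71-fold and 9.83-fold higher, and their intervals were above that of Ccl2. Ccl8 was at 5.49 (4.25 to 7.12), in place 16 from the highest of 13830 genes, and at 2.84 with 1 CPM added. Ccr2 was slightly lower, at -0.46 (-0.7 to -0.23). All 4 ligands were past 2-fold and Ccr2 was not, with 7.61% of all genes lower and 4.69% higher.

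Among the regorafenib libraries, the ratios of M1 to M0 started from the few ligand counts left in M0. They were 8.26 (8.03 to 8.51) for Ccl2, 8.23 (7.8 to 8.7) for Ccl7, 8.84 (6.35 to 14.15) for Ccl12 and 7.1 (5.23 to 10.16) for Ccl8. With 1 CPM added they were 7.98, 7.41, 3.85 and 3.14. Ccr2 was 29.1-fold lower in M1, at -4.86 (-5.6 to -4.21), or -3.74 with 1 CPM added. Again the 4 ligands were higher and Ccr2 lower, with 21.6% of all genes lower and 16.3% higher, and of all such genes 43.1% were higher, or 27.7% when scaled by total counts. Under that scaling the median of all genes was -0.51, from -0.09.

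The ratios of M2 to M0 with regorafenib were 2.36 (2.1 to 2.63) for Ccl2, 3.33 (2.88 to 3.83) for Ccl7, 4.04 (1.33 to 9.45) for Ccl12 and 4.32 (2.36 to 7.43) for Ccl8. With IL4 the ligands were thus above M0 under the drug too, although the level of Ccl2 reached only 23.2 CPM. Ccr2 was at -0.57 (-0.74 to -0.39). The 4 ligands were higher by 2-fold or more and no gene of the 5 was lower, with 5.18% of all genes lower and 4.41% higher. With 1 CPM added, the ratio was 2.62 for Ccl7, 0.54 for Ccl12 and 1.06 for Ccl8.

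**Figure D3:**
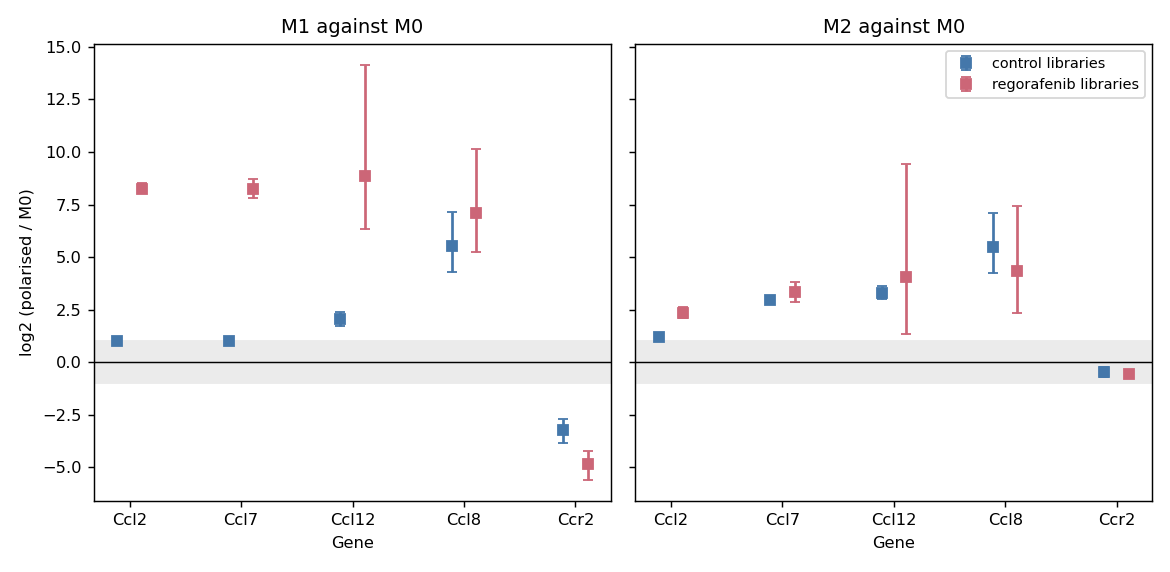
Log2 ratio of M1 to M0 (left) and of M2 to M0 (right) for each gene in the control libraries (blue) and the regorafenib libraries (red), with 95% counting intervals and the range within 2-fold shaded. In M1 the ratios of Ccl2 are 1.01 in control and 8.26 with regorafenib, and in M2 they are 1.19 and 2.36.

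The makeup of the ligand mRNA was compared per kilobase of exon. Together the 4 ligands took 0.0532%, 0.0802% and 0.178% of all counts in the M0, M1 and M2 control libraries, and 0.000665%, 0.152% and 0.0042% with regorafenib. Per kilobase, Ccl2 stood at 2.4 times Ccl7 in M0 control (2.31 to 2.5), 2.44 times in M0 with regorafenib (1.73 to 3.51), 2.37 times in M1 control (2.3 to 2.44) and 2.5 times in M1 with regorafenib (2.44 to 2.56). The ratio in M0 with and without the drug was thus close, over an 81.2-fold difference in the level of Ccl2. In M2 the ratio was 0.712 (0.7 to 0.723) in control and 1.24 (1.09 to 1.41) with regorafenib. Per kilobase, Ccl7 was thus above Ccl2 in the M2 control library alone. That order rests on the exon lengths used, 1138 bases for Ccl2 and 801 for Ccl7, which the intervals leave out. Before division by length, Ccl2 was at 839 CPM and Ccl7 at 830 CPM there. The share of Ccl8 among the 4 ligands was 0.777% in M2 control and 5.93% with regorafenib. In M1 it was 1.53% and 0.932%, and in M0 0.0688% and 2.06%, on 5 and 2 counts. The share of Ccl12 was between 0.978% and 3.01% in the 6 libraries, and the lowest, in M0 with regorafenib, rests on 1 count.

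**Figure D4:**
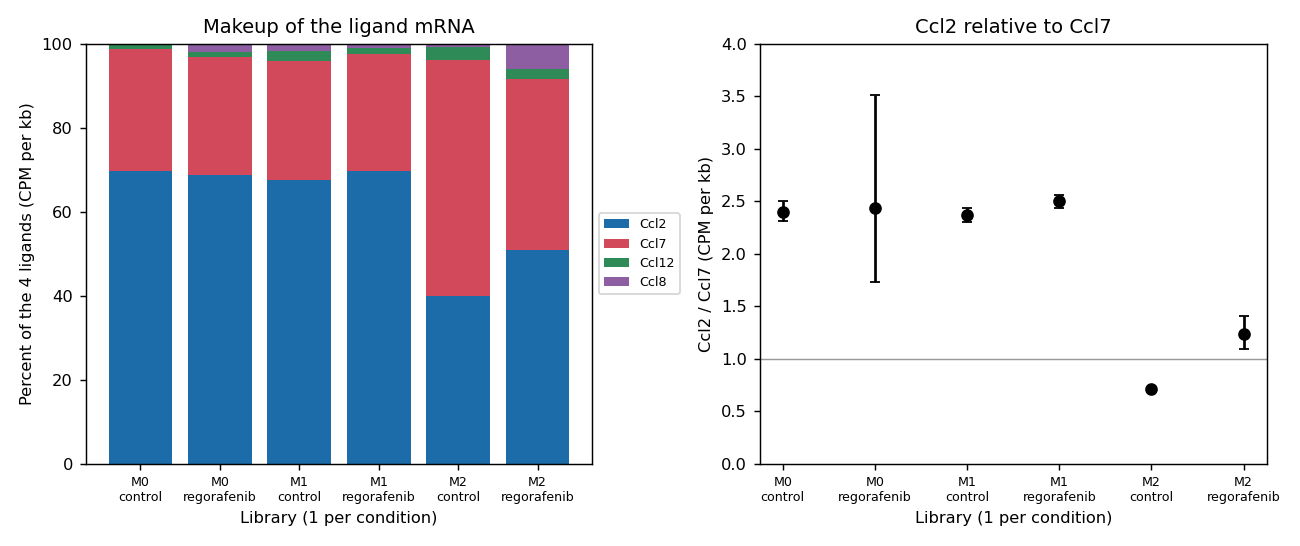
Left, the share of Ccl2, Ccl7, Ccl12 and Ccl8 in their summed CPM per kilobase in each library. Right, the ratio of Ccl2 to Ccl7 per kilobase with 95% counting intervals, which is 2.37 to 2.5 in the M0 and M1 libraries, 0.712 in M2 control and 1.24 in M2 with regorafenib.

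Of the other genes of the chromosome 11 cluster, Ccl11 (an eotaxin), which lies between Ccl7 and Ccl12, and Ccl1, next to Ccl8, had 0 counts in all 6 libraries, which allows up to 3 in each. Asic2, on the other side of Ccl2, also had 0. The transmembrane protein gene Tmem132e had 12 and 26 counts in the M1 control and regorafenib libraries and at most 1 elsewhere.

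Of 5 other receptors of these ligands, Ccr8, Ackr1 and Ackr2 had at most 2 counts in any library. Ccr1 and Ccr3 lie in the same region of chromosome 9 as Ccr2, 133 and 70.3 kb from it, and went against it in M0 and M2. With regorafenib in M0, the log2 ratio was -1.56 (-1.7 to -1.42) for Ccr1 and -2.26 (-3.25 to -1.37) for Ccr3, the eotaxin receptor. In M2 the ratio was -1.93 (-2.06 to -1.81) for Ccr1 and -2.84 (-3.45 to -2.27) for Ccr3. Of these 2, which alone passed the filter, 2 were lower by 2-fold or more in M0, 2 in M2 and 0 in M1, where 10.9%, 5.07% and 3.46% of all genes were lower. Their median was -1.91 in M0, -2.39 in M2 and -0.73 in M1. Per kilobase, Ccr2 stood at 1.57 and 3.4 CPM in M0 control and regorafenib, against 16.9 and 5.74 CPM for Ccr1. The levels of Ccr2 and Ccr1 thus came closer together with the drug. Against M0 in control, Ccr3 was at -2.02 (-3.06 to -1.11) in M1 and 1.92 (1.51 to 2.36) in M2, and Ccr1 at 0.71 (0.61 to 0.81) and 0.94 (0.85 to 1.03).

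**Figure D5:**
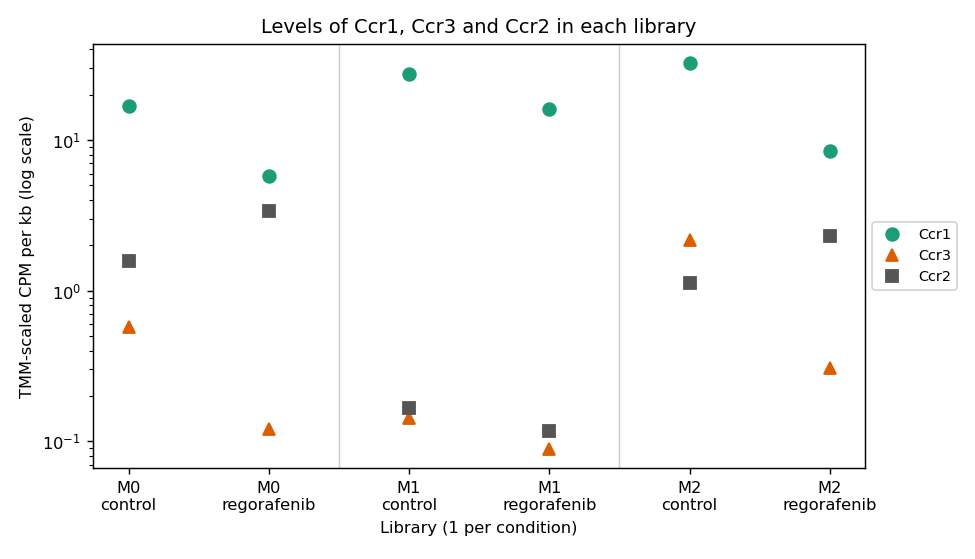
TMM-scaled CPM per kilobase on a log axis for Ccr1, Ccr3 and Ccr2 in each library. In M0 and M2, Ccr2 is higher with regorafenib (1.57 to 3.4 CPM per kilobase in M0) and Ccr1 and Ccr3 are lower.

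Among 7 partners of CCR2 signalling, Nup85, whose protein FROUNT binds the receptor's tail, was lower by 2-fold or more with regorafenib in M0, at a log2 ratio of -1.35 (-1.46 to -1.24), 1 of 7 beside 10.9% of all genes. In M2 it was at -0.38 (-0.49 to -0.27) and in M1 at 0.48 (0.25 to 0.71). The G protein subunits Gnai2 and Gnai3, the kinases Grk2 and Pik3cg and the arrestins Arrb1 and Arrb2 were within 2-fold in all 3 states, and the median of the list was -0.14 in M0, -0.05 in M1 and -0.19 in M2.

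Among 14 transcription and mRNA decay factors known for Ccl2, 1 was lower and 0 higher with regorafenib in M0, 0 differed by 2-fold in M1, and 1 was lower and 2 were higher in M2. Over all genes, 10.9% were lower and 9.47% higher in M0. For M1 these shares were 3.46% and 1.76%, and for M2 5.07% and 6.15%. The AP-1 subunit Fos was at -1.71 (-1.83 to -1.59) in M0, -0.87 (-0.98 to -0.77) in M2 and -0.72 (-0.88 to -0.56) in M1. Klf4, a transcription factor of the IL4 response, was at -0.74 (-0.86 to -0.63) in M0, -1.12 (-1.19 to -1.05) in M2 and -0.7 (-0.96 to -0.43) in M1. In M2, Irf1 was at 1.64 (1.54 to 1.74) and Nfkbiz at 1.14 (0.75 to 1.54). Nfkbia, the inhibitor of NF-κB, was at 0.15 (0.08 to 0.22) in M0 and 0.09 (0.01 to 0.17) in M2. The part of these factors in the levels of the chemokines was not tested. The median of the list was 0.24 in M0, -0.05 in M1 and 0.08 in M2. In M1 against M0 in control, 8 of the 14 were higher and 2 lower (17.4% and 19.7% over all genes), with a median of 1.77, Irf1 at 4.15 (4.06 to 4.24) and Nfkbia at 3.51 (3.46 to 3.57) among them.

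Among 9 inducers of Ccl2 and their receptors, 8 passed the filter. With regorafenib in M0, Tnf was lower, at -1.81 (-1.94 to -1.68), and 3 were higher: the receptors Ifngr1, at 1.08 (0.99 to 1.16), and Il4ra, at 1.07 (0.96 to 1.18), and Il6, at 1.16 (-0.45 to 3.02) on 5 and 12 counts, beside 10.9% of all genes lower and 9.47% higher. In M1, Tnf was at 0.61 (0.59 to 0.63), and in M2 at -0.08 (-0.29 to 0.12). Of the 8, 0 were past 2-fold in M1 (3.46% of all genes lower and 1.76% higher). In M2, Il6, at -1.2 (-3.29 to 0.52) on 12 and 4 counts, was the 1 lower and Ifngr1, at 1.03 (0.94 to 1.12), the 1 higher (5.07% and 6.15%). The M-CSF receptor Csf1r, a kinase that regorafenib is known to inhibit, was at 0.85 (0.84 to 0.87) in M0, 0.68 (0.66 to 0.69) in M2 and -0.14 (-0.16 to -0.13) in M1. The median of the list was 0.74 in M0, 0.12 in M1 and 0.29 in M2, and the part of these genes in the levels of the chemokines was not tested.

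Of the monocyte markers, Vcan and Cx3cr1 held nearly all of the summed level, which was 178 and 154 CPM in M0 control and regorafenib, 119 and 56.6 CPM in M1, and 24.9 and 18.9 CPM in M2. Ly6c2, which defines the classical monocytes that carry CCR2, had at most 25 counts in any library and 0 in both M2 libraries. With the drug in M1, 3 of the 3 monocyte markers that passed the filter were lower by 2-fold or more (median log2 ratio -1.54). In M0, 0 of 3 were lower and 1 was higher, and in M2 1 of 2 was lower and 0 higher. Over all genes, 10.9%, 3.46% and 5.07% were lower in M0, M1 and M2, and 9.47%, 1.76% and 6.15% higher. In M2, Vcan was at -1.29 (-1.53 to -1.06) and Cx3cr1 at 0.64 (0.4 to 0.88). The 7 fibroblast markers summed to 10.3 and 22.1 CPM in M0, 24.7 and 31.7 CPM in M1, and 9.83 and 19.2 CPM in M2. With the drug, 3 of the 5 that passed the filter were higher by 2-fold or more in M0 (median log2 ratio 1.52) and 1 of 3 in M2 (0.8), while in M1 0 of 4 were higher and 1 was lower (0.08). Over all genes, 9.47% were higher in M0 and 6.15% in M2, and in M1 1.76% were higher and 3.46% lower. The 8 neutrophil markers summed to 84.8 to 158 CPM, mostly Mpo, with Ly6g and Retnlg at 0 in all libraries. In M1 control the sum was 157 CPM with Mpo at 83.0 CPM, and S100a8 had 1804 counts. With the drug in M1, S100a8 was at -1.78 (-1.93 to -1.64) and Mpo at 0.05 (-0.04 to 0.13). Of those that passed the filter, 1 of 3 was lower by 2-fold or more in M1 (3.46% of all genes). In M2, 1 of 3 was higher (6.15%), S100a9 on 0 and 11 counts, and in M0 0 of 2 were past 2-fold. The 5 dendritic cell markers summed to 32.0 and 38.8 CPM in M1, mostly Ccr7, and to at most 2.54 CPM elsewhere. The part of these cells in the levels of the chemokines was not tested.

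The genes whose pattern over the 6 libraries was most like the mean of Ccl2, Ccl7 and Ccl12 were found by Pearson's r of log2(CPM + 1) among the 11308 genes that reached 100 counts in some library. They were Mrps18b (0.997), Bccip (0.996), Uba3 (0.996), Dnajc10 (0.996) and Abcf1 (0.993). Their ranges over the libraries were 0.4 to 1.02 log2 units, against 6.88 for the ligand mean. The likeness is thus one of shape on the log scale and not of size. For Ccl8 they were Mrps33 (0.992), Nckap1 (0.988), Tmem230 (0.988), Ripk2 (0.986) and Prkar1a (0.985), with ranges of 0.49 to 2.52 against 3.14. Among the 585 genes with a range of 4 log2 units or more, a limit chosen after these genes had been seen, the highest r with the ligand mean was that of Sema3c (0.961), a secreted semaphorin, followed by Abtb2 (0.874) and Ch25h (0.862). The 6 libraries are the only points behind each r.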

How the data were processed

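Total RNA of 6 BMDM libraries (TruSeq Stranded mRNA, paired reads of 100 bases) was sequenced. Gene-level read counts were deposited by the authors as whole numbers, without normalization. By the study's methods and the submitters' processing notes, cutadapt 2.4 removed adaptors, and STAR 2.7.2a aligned the reads to GRCm38 and counted them on Gencode M19. Which strand column was taken is not given in the sources used here.

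Gene names came from Gencode M21 (53229 of 54446 IDs matched with version, 1180 without, 37 unnamed). Counts were scaled with TMM (edgeR 4.0.16, R 4.3.3) over the 6 libraries (factors 0.82 to 1.12). Ratios, exact Poisson intervals of levels and conditional exact binomial (Clopper-Pearson) intervals of ratios were computed in Python 3.11.15 (scipy 1.17.1) and checked on simulated counts. A count of 0 was replaced by 0.5, and 3 counts or fewer were taken as the floor. Genes with at least 10 counts in 1 of the libraries compared formed the background of the 7 comparisons. The study's own no-replicate probabilities rest on simulated replicates and were not used. Alternatives were DESeq2 1.42.0 size factors, total counts, TMM over the pair, 1 CPM added, other count minimums and a 4-fold limit.

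The 5 genes, the lists and the markers were chosen with earlier results of these data known, and 3 genes of these lists are not reported here. Named genes are the 5 genes, members of a list described, and the 5 genes most like the mean of Ccl2, Ccl7 and Ccl12 and the 5 most like Ccl8. Genes named beyond this rule, the ranking by range and the other CC ligands were chosen after values were seen.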

Additional observations from a re-analysis of the deposited data

Results flagged for a closer look

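The log2 ratios of regorafenib to control of Ccl2 and Ccl7 had opposite signs in M1 and in the other states, each with a counting interval off 0. For Ccl2 the ratio in M0 (-6.34) minus that in M1 (0.91) was -7.26, and the ratio in M2 (-5.18) minus that in M1 was -6.09. For Ccl7 the ratio in M0 (-6.37) minus that in M1 (0.83) was -7.2, and the ratio in M2 (-5.98) minus that in M1 was -6.81. With 1 library per condition these differences between states were not tested.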

How the results depend on the processing

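The 35 ratios of the 5 genes kept their sign in all 140 alternative values, of which 26 lay outside the counting interval. The number of the 5 genes past 2-fold in a direction differed from the text as follows. At 4-fold, 3 were lower and 0 higher with regorafenib in M0, 0 were higher with it in M2, and 2 and 3 were higher in M1 and M2 against M0 in control. With 1 CPM added, 3 were lower with regorafenib in M0, 0 higher with it in M2, and 3 higher in M2 against M0 with it. With total counts 2 were higher in M1 against M0 in control. Counts over all genes moved by over 1.5 times as follows, and beyond the change of filter itself the cause was not tested.

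With 1 CPM added, 942 genes were lower and 553 higher with regorafenib in M0. In M1 they were 101 and 53, and in M2 they were 269 and 296. In M2 against M0 in control 500 were lower and 280 higher, with regorafenib 185 and 266, and in M1 against M0 with regorafenib 1997 were lower. With no filter, 4087 were lower and 2601 higher with regorafenib in M0. In M1 they were 1626 and 2513, and in M2 they were 2021 and 3254. In M1 against M0, 5522 were then higher in control, and with regorafenib 4610 lower and 4874 higher, and in M2 against M0, 3541 lower and 1846 higher in control and 1971 and 2982 with regorafenib. With at least 10 counts in any of the 6 libraries, 493 were higher with regorafenib in M1. Of the 5 genes most like the ligand mean, 4 and 3 were kept with at least 1000 counts and with 0.1 CPM added, and of those most like Ccl8, 3 and 2. In the ranking by range, 0 of either 5 were kept.

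Leaving out a replicate was not possible with 1 library per condition. No paired analysis was possible within a condition because each has 1 library, and a fit of the drug with state as a block was not run, since the 5 genes were selected on these ratios. Depth limits Ccl12 and Ccl8 in M0, where Ccl12 had 1 count with the drug and Ccl8 had 5 and 2, and Ccr2 in M1, with 19 and 29 counts.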

Other observations

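The other CC chemokine ligands were read by symbol after the values of Ccl2, Ccl7, Ccl12 and Ccl8 had been seen. Of 19 further ligand genes, 8 had at least 10 counts in a library of the M0 comparison, and 3 of these were lower and 2 higher by 2-fold or more with regorafenib, beside 10.9% and 9.47% of all genes. The lower ones were Ccl3, at a log2 ratio of -2.03 (-2.15 to -1.91), Ccl4, at -2.96 (-3.16 to -2.76), and Ccl9, at -1.45 (-1.48 to -1.42), all ligands made by activated macrophages and all of smaller size than the -6.34 of Ccl2. The higher ones were Ccl24, at 3.76 (1.77 to 6.87) on 2 and 29 counts, and Ccl27a, at 2.9 (0.81 to 6.06) on 2 and 16 counts.

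In M1, Ccl3, Ccl4 and Ccl9, which were lower in M0, were above control. Ccl3 was at 0.66 (0.65 to 0.67), Ccl4 at 0.63 (0.59 to 0.67) and Ccl9 at 0.84 (0.81 to 0.86) there. Ccl5 was above control in M0, at 0.59 (0.16 to 1.02), and in M1, at 0.52 (0.51 to 0.53), and Ccl25 was at -0.08 (-0.44 to 0.27) in M1. The CCR4 ligands Ccl17, at 4.4 (3.74 to 5.15), and Ccl22, at 2.34 (2.25 to 2.43), were the 2 of 8 ligands higher by 2-fold or more, with 0 lower, beside 1.76% and 3.46% of all genes. In M2, 3 of 10 were lower and 3 higher, beside 5.07% and 6.15% of all genes, with Ccl4 at -2.25 (-2.47 to -2.04) and Ccl22 at 1.62 (1.36 to 1.89). Ccl28 was among the lower on 10 and 3 counts, at -1.35 (-3.85 to 0.6), and its interval spans 0. Ccl6 was at -0.05 (-0.15 to 0.04) in M0, so not every CC ligand of these macrophages was lower with the drug. The median over these ligands was 0.25 in M0, 0.75 in M1 and 0.15 in M2, beside 0.0, -0.02 and -0.03 for all genes.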
